A study of Homo sapiens with 65 samples.

Results

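ANKRD1 and 9 other genes that are widely used as readouts of the transcriptional co-activator YAP were followed in developing human heart organoids in which hyaluronan, a large extracellular sugar polymer, was removed in either of 2 ways. The 10 genes are ANKRD1, CCN1, CCN2, AMOTL1, AMOTL2, AJUBA, LATS2, CRIM1, F3 and AXL, out of 58735 genes in the count table. CCN1 and CCN2 are listed there under the older names CYR61 and CTGF. ANKRD1 was picked from these same data for its large fall at day 4.5 in both arms of the study, so its day 4.5 differences are given as a description with no test. The other 9 were chosen by name, as YAP targets, with earlier results of these data known.

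The organoids were left ventricular cardioids, self-organising heart tissue grown from the human induced pluripotent stem cell line WTC-11. Cells were induced to mesoderm in flat culture, dissociated and reseeded as aggregates at day 1.5, and labelled cardiac progenitors up to day 4.5 and cardiomyocytes at day 7.5. In the genotype arm, HAS2-KO cardioids, which lack the hyaluronan synthase HAS2, were compared with wild type (WT) at day 1.5 (5 WT and 6 KO libraries), day 2.5 and day 4.5 (6 of each) and day 7.5 (3 of each). The KO libraries came from clones cl4, cl14, cl46 and cl51, and the WT libraries from lines labelled WT, WT_TU, cl43_WT_UT and TNT2. In the enzyme arm, untreated cardioids were compared with cardioids given hyaluronidase (HAse), which digests hyaluronan, from day 1.5 or from day 2.5. These were sampled at day 2.5 (the early start and untreated), day 4.5 and day 7.5, with 3 libraries per group, 1 each from lines TNNI1, WT and TNNT2. The dose of enzyme is not given in the sources used here. Each library pooled 8 cardioids, so fewer cells of a type and less RNA per cell cannot be told apart.

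YAP and its relative TAZ (gene WWTR1) carry no DNA-binding domain and act on genes through the TEAD transcription factors. The Hippo kinases LATS1 and LATS2 phosphorylate YAP and TAZ and keep them out of the nucleus, while cell spreading, tension on the cytoskeleton and a stiff surrounding matrix favour their entry. Several targets feed back on the pathway: LATS2 is one of the kinases, AMOTL1 and AMOTL2 are angiomotins that hold YAP at junctions and actin, and AJUBA is a LIM protein that restrains LATS. ANKRD1, also called cardiac ankyrin repeat protein, is in addition a component of the cardiomyocyte sarcomere, where it binds the elastic protein titin, and it is induced by stretch and load in the heart.

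The TEAD factors bind a core of the letters CATTCC, or GGAATG on the other strand, and the promoters were searched for it because the member genes are grouped as TEAD-dependent targets. RefSeq promoter sequences (GRCh38.p14), each from 250 bases before a transcription start to 50 after it, were matched for 8 of the 10 genes, in 11 windows. The core stood on either strand in 6 of these 11 windows, which belong to 6 of the 8 genes, and in 14.0% of all 35116 windows of that length. CCN2, the gene with 3 matches, is shown from the start of its window to the base before the gene begins (GRCh38.p14 chr6:131951374-131951622, minus strand, 249 bases), with the matches in capitals.
CCN2 promoter: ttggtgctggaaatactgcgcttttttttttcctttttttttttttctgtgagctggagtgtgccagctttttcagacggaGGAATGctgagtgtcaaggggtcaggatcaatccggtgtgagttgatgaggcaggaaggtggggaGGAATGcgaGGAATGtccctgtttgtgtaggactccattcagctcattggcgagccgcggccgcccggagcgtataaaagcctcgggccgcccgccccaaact

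ANKRD1 had 2 matches, whose first bases lie 220 and 128 bases before its RefSeq start. They are printed with 12 bases on each side, from chr10:90921290-90921319 and chr10:90921198-90921227 (minus strand), and the second falls inside the longer GENCODE 29 model of ANKRD1. Of the 9 sites found for all members, 4 lie inside the GENCODE model of their gene. The single matches of AMOTL2 (chr3:134374499-134374528), AJUBA (chr14:22976884-22976913), LATS2 (chr13:21061560-21061589) and AXL (chr19:41226531-41226560, plus strand) are set beside them to let the flanks be compared.
ANKRD1, 220 before: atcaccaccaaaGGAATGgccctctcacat
ANKRD1, 128 before: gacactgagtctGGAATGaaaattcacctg
AMOTL2, 69 before: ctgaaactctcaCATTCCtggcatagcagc
AJUBA, 59 before: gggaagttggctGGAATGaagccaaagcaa
LATS2, 10 after: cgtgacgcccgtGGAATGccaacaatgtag
AXL, 212 before: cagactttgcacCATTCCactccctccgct
The AP-1 motif TGANTCA, which reads the same on both strands and overlaps none of these cores, was in 7.71% of all windows, once in that of ANKRD1 (195 bases before the start) and at 2 places in that of F3, 223 and 210 bases before it. No core was found in the windows of AMOTL1 and F3. A match describes the letters only, and binding was not measured.

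The libraries held 831062 to 3574843 counts each (median 1570954), so that 3 counts, taken as the floor of detection, correspond to 0.839 to 3.61 CPM, the count scaled to a common library total (counts-per-million scale). HAS2 itself was read at 83.8%, 88.5%, 103% and 116% of the WT mean in KO cardioids at days 1.5, 2.5, 4.5 and 7.5, with overlapping ranges. A tag from the 3′ end of the transcript does not check an edit elsewhere in the gene. The R1 libraries of lines WT, WT_TU and cl4 stood apart for CCN1 and CCN2, and results they touch are given with and without them, an alternative chosen after these values were seen. Levels are CPM, tests are edgeR's quasi-likelihood test with Benjamini-Hochberg adjustment over all genes of an arm at 0.05, and changes are log2 fold changes with their standard error. Clone cl4 was repeated among the KO libraries (R1, R2 and R3 at days 1.5, 2.5 and 4.5, R2 and R3 at day 7.5). Lines WT and WT_TU were repeated among the WT libraries. The main fits count every library as separate, so repeats of a line or clone are mixed with different lines and clones. The labels do not state whether repeats were separate cultures, and p-values measure the spread between these libraries only.

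ANKRD1 (ENSG00000148677, GRCh38 chr10:90912096-90921276, minus strand) moved over a wide range during normal development. In WT cardioids it was read at 109.9, 157, 445, 253 and 472 CPM at day 1.5, the last day of flat culture. At day 2.5, after reseeding, it ranged from 4.77 to 56.0 CPM with a median of 18.2 over 6 libraries, and no library of day 2.5 reached the lowest of day 1.5. This was a change of -3.95 ± 0.50 on the log2 scale (edgeR adjusted p = 4.87e-08), and it held in all 17 alternatives run. At day 4.5 the 6 WT libraries lay between 321 and 1050.1 CPM (median 536), and at day 7.5 the 3 libraries were at 489, 655 and 696 CPM. The day 4.5 values served in choosing ANKRD1, so the fitted rise of 4.78 ± 0.51 from day 2.5 and the difference of 0.16 ± 0.51 from day 4.5 to 7.5 are descriptions.

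In untreated cardioids of the enzyme arm, ANKRD1 was also read higher at day 4.5 than at day 2.5 in every line. Lines TNNI1, WT and TNNT2 gave 83.7, 16.1 and 103 CPM at day 2.5, then 429, 318 and 372 CPM at day 4.5. At day 7.5 they gave 369, 1630.5 and 1283 CPM, so TNNI1 was read lower than at day 4.5 while the other lines were read higher. The fitted steps were 2.30 ± 0.96 and 1.67 ± 0.91. With the line as a replicate block the first was 2.44. Both steps hold the day 4.5 libraries that served in choosing ANKRD1, so they are descriptions.

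**Figure D1:**
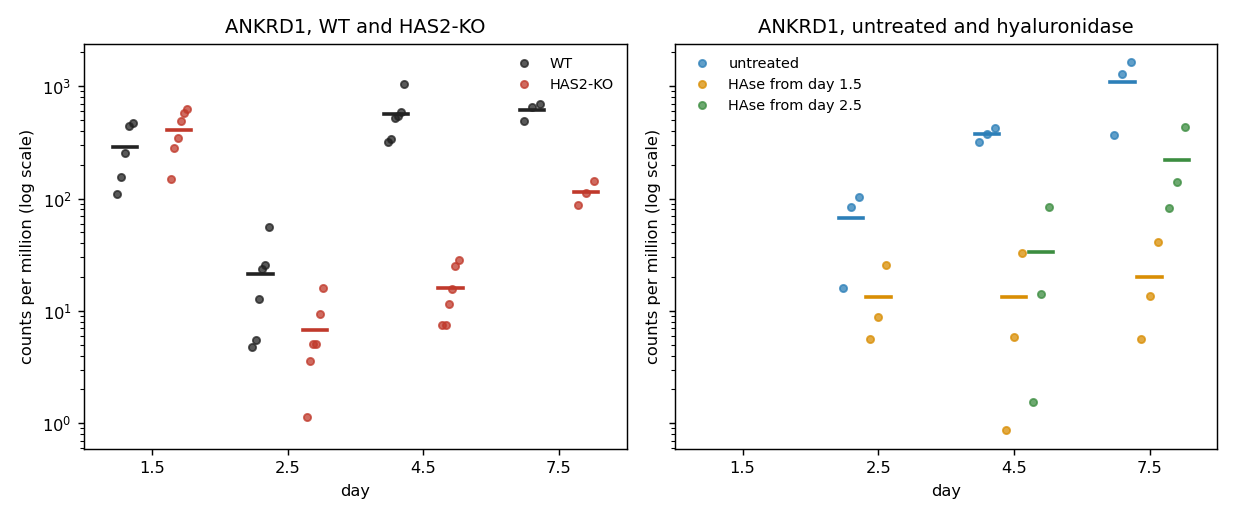
ANKRD1 level (CPM) on a log scale (y axis) against day (x axis), for WT and HAS2-KO cardioids (left) and for untreated and hyaluronidase-treated cardioids (right). Each point is a library and each bar a group mean; at day 4.5 the KO libraries lie between 7.53 and 28.2 and the WT libraries between 321 and 1050.1.

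At day 4.5, the time from which it was chosen, ANKRD1 was low wherever hyaluronan had been targeted. The 6 KO libraries lay between 7.53 and 28.2 CPM (median 13.6, mean 15.9 ± 8.84 SD) against 563 ± 264 in WT. No KO library came within reach of a WT library, and the KO mean was 2.83% of that of WT. With the enzyme from day 1.5, lines TNNI1, WT and TNNT2 were at 32.9, 0.864 and 5.82 CPM, and with the enzyme from day 2.5 they were at 84.8, 1.56 and 14.1 CPM. The lowest of these, in line WT, rest on 1 and 2 counts. All 6 treated libraries lay below the lowest untreated one, and the group means were 3.54% and 8.98% of the untreated mean. The fitted differences were -5.20 ± 0.52 for KO, -4.83 ± 1.13 for the early enzyme and -3.50 ± 1.03 for the late enzyme. Both enzyme groups share their untreated libraries. Between the enzyme groups the fitted difference was -1.34 ± 1.15, and it turned to 0.68 without the late library of line TNNI1.

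Before the cardioids formed, ANKRD1 did not separate the genotypes. At day 1.5 the KO libraries ranged from 149 to 627 CPM (median 419) and overlapped WT throughout, with a fitted difference of 0.51 ± 0.45 (95% interval -0.40 to 1.41, edgeR adjusted p = 0.937). At day 2.5, a day after reseeding, KO libraries ranged from 1.15 to 16.1 CPM (median 5.10), and the KO mean of 6.75 ± 5.32 was 31.5% of the WT mean of 21.4 ± 19.1. The ranges overlapped, and the fitted difference of -1.61 ± 0.53 did not pass (edgeR adjusted p = 0.161). Among the R1 libraries and among the R2 libraries of lines WT, WT_TU and cl4, the KO value was below both WT values, at 3.61 CPM against 4.77 and 5.55, and at 5.09 against 23.7 and 25.7. Among the remaining libraries the 4 KO values (1.15 to 16.1) and the 2 WT values (12.7 and 56.0) overlapped.

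At day 7.5 ANKRD1 in KO cardioids lay between its day 4.5 level and WT. Clone cl4 gave 143 and 112 CPM and cl14 gave 88.3 CPM, all above every KO library of day 4.5 and all below the 3 WT libraries, with a KO mean of 114 ± 27.2 that was 18.6% of the WT mean of 613 ± 109.6. The fitted difference was -2.46 ± 0.63 (95% interval -3.74 to -1.17), with an edgeR adjusted p of 0.0820 that missed the threshold. It passed with DESeq2 (-2.44, adjusted p = 0.0335), with a fit of these 6 libraries alone (-2.44, edgeR adjusted p = 1.33e-07) and without the R1 libraries (-2.58, edgeR adjusted p = 0.00298). In all it passed in 4 of 12 alternatives, and in 0 of 6 omissions of a single library. The WT mean was 5.36-fold the KO mean at day 7.5 and 35.4-fold at day 4.5. ANKRD1 was chosen for its day 4.5 gap, so a smaller gap on another day could follow from the choice alone. Clones cl46 and cl51, at 7.54 and 7.53 CPM at day 4.5, have no day 7.5 library. Only the R2 libraries hold both genotypes at day 7.5, and there cl4 was at 143 CPM against 655 and 696 CPM.

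With the early enzyme ANKRD1 was below the untreated library of the same line on all 3 days sampled. At day 2.5, a day into the treatment, lines TNNI1, WT and TNNT2 gave 25.4, 5.59 and 8.74 CPM, and 30.3%, 34.7% and 8.47% of their own untreated libraries. The ranges of treated and untreated libraries overlapped, and the fitted difference of -2.41 ± 1.12 did not pass (edgeR adjusted p = 0.525). At day 7.5 they gave 40.8, 13.7 and 5.58 CPM against 369, 1630.5 and 1283 CPM, with no overlap and with each line below its own untreated library, at 11.1%, 0.838% and 0.435%. ANKRD1 fell by 5.92 ± 1.16 on the log2 scale (edgeR adjusted p = 0.00791), a 54.7-fold difference between means. The call was kept in 10 of 11 alternatives, and without the treated library of line WT it was -5.70 with an edgeR adjusted p of 0.0519.

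The late enzyme gave a mixed picture at day 7.5 that divided by line. Line TNNI1 was read at 437 CPM, or 119% of its untreated library, while lines WT and TNNT2 were at 82.5 and 141 CPM, or 5.06% and 11.02%. The fitted difference of -2.34 ± 0.94 did not pass (edgeR adjusted p = 0.295). All 3 late libraries lay above all 3 early ones, and the means of 220.2 ± 190 and 20.0 ± 18.4 CPM put the early group at 9.08% of the late one. The fitted difference, -3.58 ± 1.08 (95% interval -5.86 to -1.29), did not pass over all genes either (edgeR adjusted p = 0.469). In all 5 enzyme groups line TNNI1 was the highest of the 3 lines.

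The effects of gene loss and of the early enzyme were also compared directly. At day 2.5 the KO effect minus the enzyme effect was 0.79 ± 1.09 (edgeR adjusted p = 0.992). At day 7.5 it was 3.47 ± 1.11 (95% interval 1.25 to 5.69), with the enzyme effect the larger and an edgeR adjusted p of 0.329. It passed only when no filter on low counts was set (3.46, edgeR adjusted p = 1.07e-10).

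Ranked by mean, the 16 groups ran from 1094 ± 652 CPM in untreated cardioids at day 7.5 down to 6.75 ± 5.32 in KO at day 2.5, a 162-fold span. Below the untreated day 7.5 group came WT at days 7.5 and 4.5, KO at day 1.5, untreated at day 4.5 and WT at day 1.5, all with means of 288 CPM or more. The late enzyme and KO at day 7.5 followed at 220.2 and 114 CPM, then untreated at day 2.5 (67.7 ± 45.7), the late enzyme at day 4.5 (33.5 ± 44.9) and WT at day 2.5. The 3 early enzyme groups and KO at days 4.5 and 2.5 filled the last places. All 15 pairs of neighbours in this order overlapped in range, so no neighbouring ranks were separated by more than their spread.

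Cardiomyocytes make ANKRD1, though it was also read at day 1.5, when their markers were low. Its level was set beside 14 cardiomyocyte markers, among them TNNT2, MYH6, TTN and NKX2-5. Their summed level at day 4.5 had a median of 44247 CPM in WT and 32510 in KO, with all 14 markers above the floor in both. By edgeR 6 of the 14 were lower in KO at that day, where 3.74% of all genes were called, with 14 of 14 fitted changes below zero (median -1.17). With the early enzyme 10 of 14 were lower (median -2.66), where 3.48% of all genes were called. At day 2.5 edgeR called 6 of 14 lower in KO (0.993% of all genes called) and 3 of 14 lower with the early enzyme (1.15%). At day 4.5 the summed level had a median of 32887 CPM in untreated cardioids and 28830 with the late enzyme. With the early enzyme it was 9500 (range 5477 to 20509), and NPPA was at 0 in all 3 libraries of that group. Per 100 CPM of these markers, ANKRD1 was at 1.18 ± 0.487 in WT and 0.0508 ± 0.0226 in KO at day 4.5, and at 1.05 ± 0.293 in untreated, 0.222 ± 0.329 in early and 0.106 ± 0.122 in late enzyme cardioids. By line (TNNI1, WT and TNNT2) the early ratios were 0.601, 0.00421 and 0.0613, and the late ones 0.241, 0.00542 and 0.0706. The untreated ratios were 0.816, 0.967 and 1.38. These day 4.5 ratios use the values that chose ANKRD1 and are descriptions. At day 1.5 the summed markers were at 71.8 to 175 CPM, and the ratio was 263 ± 180 in WT and 310 ± 122 in KO.

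At day 7.5 the summed markers stood at 71935 CPM in WT and 68205 in KO (median), and ANKRD1 per 100 marker CPM was 0.872 ± 0.104 in WT and 0.171 ± 0.0343 in KO. With the early enzyme the markers were at 35676 CPM against 75348 in untreated cardioids, and ANKRD1 per 100 marker CPM was 0.0597 ± 0.0583 against 1.51 ± 0.955. By edgeR 0 of the 14 markers were called in KO at this day (0.348% of all genes) and 6 of 14 fell with the early enzyme (3.33% called). The late enzyme group had 48818 CPM of markers and a ratio of 0.377 ± 0.238. By line (TNNI1, WT and TNNT2) this late ratio was 0.646, 0.195 and 0.290, against 0.489, 2.38 and 1.65 untreated. The other marker lists moved less evenly: at day 4.5, 8 epicardial markers summed to a median of 31.1 CPM in untreated cardioids and to 10.6 and 11.7 CPM with the early and late enzyme, with UPK3B and ITLN1 at 0 in all 3 groups. The 10 fibroblast markers summed to 2525, 1591 and 2111 CPM in the same order. At day 7.5, 10 endoderm markers summed to a median of 197 CPM in untreated cardioids, 67.6 with the early and 79.2 with the late enzyme. AFP and APOB, 2 of the 7 tested, were lower with either start (3.33% and 0.659% of all genes called). In KO the 10 endoderm markers summed to 263 CPM against 134 in WT, with 0 of 8 called by edgeR (0.348% of all genes). The KO and early enzyme effects differed for AFP and APOB, 2 of 8 (0.0925% of all genes). The part of these cell types in the results was not tested.

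**Figure D2:**
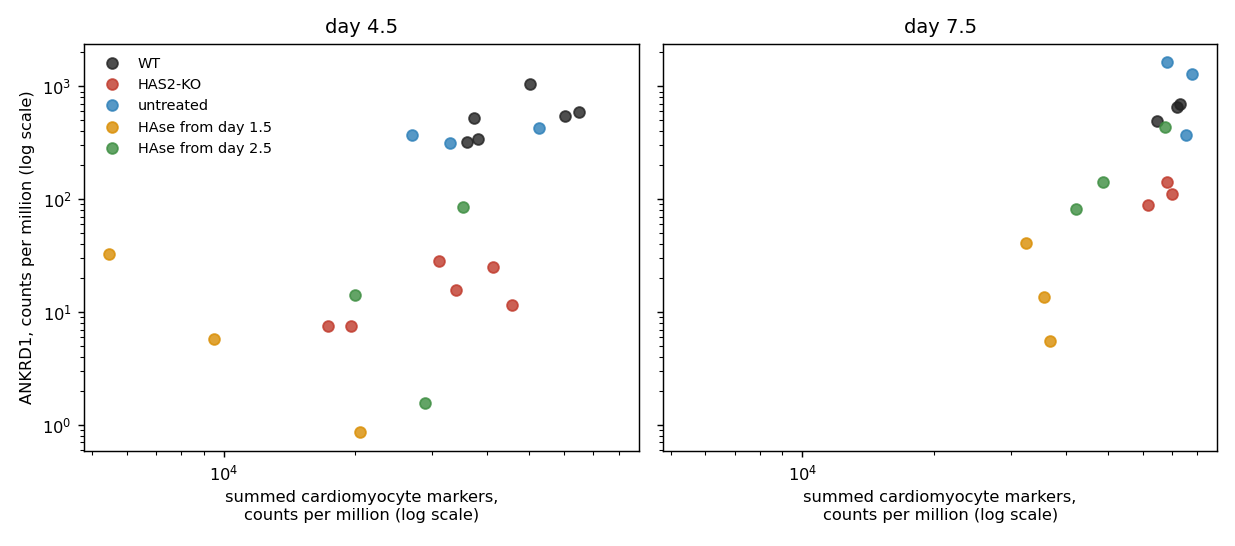
ANKRD1 (y axis) against the summed level of 14 cardiomyocyte markers (x axis), both in CPM on log scales, at day 4.5 (left) and day 7.5 (right), with each point a library. At day 4.5 the KO libraries span 17308 to 45571 on the x axis and the WT libraries 35919.9 to 64812, and they do not meet on the y axis.

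CCN2 (chr6:131948176-131951373, minus strand) and CCN1 (chr1:85580761-85583962, plus strand) encode secreted matricellular proteins and are the most commonly used readouts of YAP and TEAD. CCN2 was at 8.20 to 21.8 CPM in WT at day 1.5 and at 3.57 to 19.1 CPM (median 9.30) at day 2.5. At day 4.5 WT split: the R1 libraries of lines WT and WT_TU gave 55.0 and 54.7 CPM, and the other 4 gave 4.38 to 13.3 CPM. The rise from day 2.5 to 4.5 of 1.40 ± 0.56 (edgeR adjusted p = 0.0482) rests on these libraries, since it was 0.94 and 1.00 without 1 or the other (edgeR adjusted p = 0.213 and 0.183) and 0.39 without the R1 libraries (edgeR adjusted p = 0.614). At day 7.5 WT CCN2 was at 51.8, 37.7 and 31.7 CPM. From day 4.5 to 7.5 CCN2 differed by 0.71 ± 0.63 and CCN1 by 0.22 ± 0.89 (edgeR adjusted p = 0.690 and 0.958). Without the R1 libraries both rose, CCN2 by 2.05 ± 0.55 and CCN1 by 3.17 ± 0.89 (edgeR adjusted p = 0.0180 and 0.0292).

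CCN2 was lower in KO cardioids than in WT from day 2.5 on, though not before. At day 1.5 KO libraries ranged from 8.25 to 41.5 CPM (median 32.3) and the difference was 0.62 ± 0.56 (edgeR adjusted p = 0.937). At day 2.5 KO libraries ranged from 0 to 7.22 CPM (median 2.07), and within each of 3 sets (the R1 libraries of lines WT, WT_TU and cl4, the R2 libraries of these lines, and all others) every KO value lay below every WT value. The fitted difference of -2.17 ± 0.71 did not pass over all genes (edgeR adjusted p = 0.165). At day 4.5 KO libraries ranged from 0 to 9.14 CPM (median 1.41), the highest being the R1 library of cl4, and again lay below WT within all 3 sets, with a fitted difference of -3.26 ± 0.66 given as a description. At day 7.5 the values were 12.4, 2.88 and 3.98 CPM with no overlap with WT. Only the R2 libraries hold both genotypes then, with cl4 at 12.4 CPM against 31.7 and 37.7 in WT. The day 7.5 difference of -2.70 ± 0.85 did not pass (edgeR adjusted p = 0.263). It passed when the R1 libraries of lines WT, WT_TU and cl4 were left out on all days (-2.46, edgeR adjusted p = 0.0330), and in 0 of 6 omissions of a single library.

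With the enzyme, CCN2 was close to the floor at day 4.5. Untreated lines TNNI1, WT and TNNT2 gave 6.82, 12.4 and 13.2 CPM, the early enzyme 1.24, 0 and 0.582, and the late enzyme 2.16, 0 and 0.641. These are 43 counts in all untreated libraries against 3 and 4 counts, ratios of 15.96 (exact 95% interval 5.11 to 80.4) and 11.3 (4.10 to 43.3) per total counts that cover counting error only. At day 7.5 the early enzyme libraries held 0, 1.44 and 2.09 CPM and the late ones 5.54, 8.05 and 1.96 CPM, against 7.14, 8.30 and 1.48 CPM untreated. The early difference of -2.24 ± 0.88 did not pass (edgeR adjusted p = 0.187), and the late one was -0.17 ± 0.73 (95% interval -1.68 to 1.33, edgeR adjusted p = 0.944).

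CCN1 fell from 5.64 to 36.9 CPM in WT at day 1.5 to 2.04 to 10.3 CPM at day 2.5, a change of -2.43 ± 0.81 (edgeR adjusted p = 0.0194). Without the R1 library of line WT at day 1.5 this was -2.12 (edgeR adjusted p = 0.0589). In KO at day 2.5 CCN1 was at 0 in 4 of 6 libraries and at 2.55 and 0.574 CPM in the others, 5 counts in all against 61 in WT. That difference of -3.01 ± 1.24 did not pass (edgeR adjusted p = 0.353). At day 4.5 the R1 libraries of WT and WT_TU were at 28.1 and 48.9 CPM and the other 4 WT libraries at 0 to 4.38 CPM, while the R1 library of cl4 was at 12.7 CPM and the other KO libraries at 0 to 3.67 CPM, so that KO lay below WT within the R1 libraries only. At day 7.5 KO was at 4.56, 0 and 4.65 CPM against 22.6, 11.9 and 16.8 in WT, with no overlap. The difference of -2.54 ± 1.23 did not pass (edgeR adjusted p = 0.886). Only the R2 libraries hold both genotypes at that day, with cl4 at 4.56 CPM against 11.9 and 16.8 in WT. Genotype and library set are otherwise mixed there. In the enzyme arm CCN1 did not pass the filter on low counts, and no library there exceeded 10.7 CPM.

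AMOTL2 (chr3:134355874-134375479, minus strand), the angiomotin that is itself a YAP target, was the other member called with the early enzyme at day 7.5. Untreated lines TNNI1, WT and TNNT2 were at 118, 106 and 62.2 CPM at day 2.5 and at 23.2, 42.6 and 62.6 CPM at day 4.5. Line TNNT2 did not fall, and the ranges of the days overlapped. The fitted change was -1.28 ± 0.35 (edgeR adjusted p = 0.00897). Without the untreated library of TNNI1 at day 4.5 it was -0.99 (edgeR adjusted p = 0.0663). At day 7.5 untreated cardioids held 29.4, 47.2 and 49.7 CPM and early enzyme cardioids 10.6, 14.4 and 8.36 CPM. Each line was below its untreated library, at 36.0%, 30.5% and 16.8%. AMOTL2 fell by 2.04 ± 0.40 (edgeR adjusted p = 0.00453), and this call was kept in all 11 alternatives run, with changes between -2.26 and -1.87.

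At day 2.5 the early enzyme libraries of AMOTL2 were at 52.2, 62.3 and 22.5 CPM, each below its own untreated library, with a difference of -1.10 ± 0.34 that did not pass (edgeR adjusted p = 0.155). At day 4.5, given as a description, the early enzyme libraries were at 14.3, 14.7 and 14.6 CPM and the late ones at 7.19, 14.1 and 14.1 CPM, all below the lowest untreated library. At day 7.5 the late enzyme libraries were at 29.8, 25.5 and 22.9 CPM, above all early ones. Their difference from untreated was -0.76 ± 0.36 (edgeR adjusted p = 0.367), and that of early from late was -1.28 ± 0.41 (edgeR adjusted p = 0.469).

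In the genotype arm AMOTL2 turned on a single library. At day 2.5 KO libraries were at 17.2 to 32.8 CPM except for the R1 library of cl4 at 85.4 CPM, the shallowest library of the study, and WT was at 31.2 to 69.3 CPM (median 57.6). The difference of -0.69 ± 0.28 did not pass with that library (edgeR adjusted p = 0.352) and did without it (-1.09, edgeR adjusted p = 0.0280). It was -1.32 without the R1 libraries of all 3 lines (edgeR adjusted p = 8.77e-05). At day 4.5 the KO difference was -0.60 ± 0.29, and -0.84 without these libraries, as a description. At day 7.5 KO (37.1, 31.1 and 47.1 CPM) and WT (45.2, 35.6 and 40.1 CPM) overlapped, with a difference of -0.11 ± 0.40 (95% interval -0.92 to 0.70, edgeR adjusted p = 1). The KO effect minus the early enzyme effect on AMOTL2 at day 7.5 was 1.94 ± 0.58 (edgeR adjusted p = 0.260).

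AMOTL1 (chr11:94706431-94876753, plus strand), the related angiomotin, did not move with ANKRD1. In WT it went from 87.7 to 217 CPM (median 168) at day 2.5 to 8.77 to 40.2 CPM (median 15.9) at day 4.5, a fall by 2.90 ± 0.31 (edgeR adjusted p = 7.95e-10). Untreated cardioids fell by 1.99 ± 0.42 over the same step (edgeR adjusted p = 0.00157), from 164 to 232 CPM to 30.7 to 70.2 CPM. Both calls were kept in all alternatives run (18 and 11). In KO at day 4.5 AMOTL1 was at 23.8 to 68.3 CPM (median 46.8), above every WT library within each of the 3 library sets, with a fitted difference of 1.07 ± 0.30 given as a description, and 0.79 without the R1 libraries. Neither enzyme start moved it past the threshold on any day, and its largest enzyme difference was -0.29 ± 0.43, for the late start at day 4.5.

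**Figure D3:**
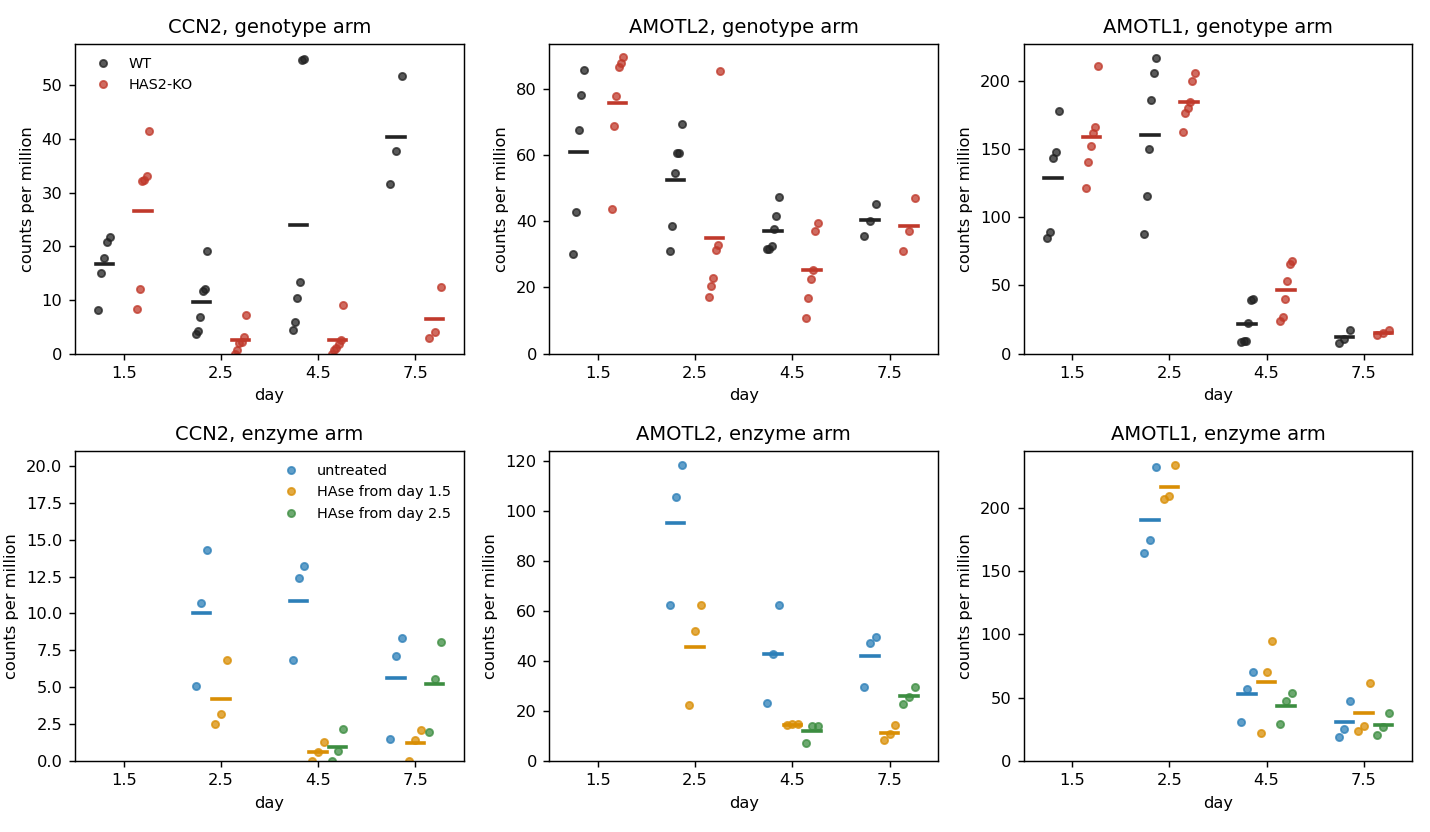
CCN2, AMOTL2 and AMOTL1 in CPM (y axis, linear, from 0) against day (x axis) in the genotype arm (top) and the enzyme arm (bottom), with a point for each library and a bar for each group mean. CCN2 in WT at day 4.5 splits into 2 libraries near 55 and 4 between 4.38 and 13.3, and AMOTL2 at day 7.5 lies between 8.36 and 14.4 with the early enzyme and between 29.4 and 49.7 without it.

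LATS2 (chr13:20973032-21061547, minus strand), the Hippo kinase, varied little, with group means from 12.3 to 33.1 CPM. It rose from 14.1 to 24.6 CPM at day 1.5 to 29.2 to 37.4 CPM at day 2.5 in WT, by 0.61 ± 0.23 (edgeR adjusted p = 0.0388), a call lost in 8 of 17 alternatives, 6 of them the omission of 1 library. In KO at day 2.5 it was at 11.5 to 23.6 CPM in 5 libraries and at 38.5 CPM in the R1 library of cl4. The difference of -0.68 ± 0.22 did not pass (edgeR adjusted p = 0.151) and did without that library (-0.86, edgeR adjusted p = 0.0435). LATS2 differed with the early enzyme by -0.92 ± 0.44 at day 2.5 and -0.86 ± 0.46 at day 7.5 (edgeR adjusted p = 0.532 and 0.356), and with the late enzyme by -0.27 ± 0.44 at day 7.5 (edgeR adjusted p = 0.827).

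AJUBA (chr14:22971174-22982642, minus strand) was at 12.6 to 38.2 CPM (median 20.7) in WT at day 2.5 and at 5.01 to 16.9 CPM (median 10.8) at day 4.5, a fall by 1.10 ± 0.36 (edgeR adjusted p = 0.0150). Without the R1 library of line WT at day 2.5 it was -0.92 (edgeR adjusted p = 0.0536). KO libraries at day 2.5 held 8.29 to 20.5 CPM (median 11.6), a difference of -1.03 ± 0.36 that did not pass (edgeR adjusted p = 0.217). At day 7.5 KO was at 0.651, 5.18 and 2.65 CPM, below the 12.3, 6.98 and 8.41 CPM of WT without overlap. Only the R2 libraries hold both genotypes then, with cl4 at 0.651 CPM against 6.98 and 8.41 in WT. The AJUBA difference of -1.71 ± 0.62 did not pass (edgeR adjusted p = 0.500). Its enzyme differences were -1.40 ± 0.74 at day 2.5 and -1.07 ± 0.83 at day 7.5 for the early start and -0.88 ± 0.81 at day 7.5 for the late one (edgeR adjusted p = 0.615, 0.555 and 0.657). AJUBA overlaps another coding gene, AL132780.3, on the same strand, so reads of the pair may have been split.

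CRIM1 (chr2:36355926-36551135, plus strand), a transmembrane protein that binds BMPs and other growth factors, fell by 1.65 ± 0.36 from day 2.5 to 4.5 in WT (edgeR adjusted p = 0.000349), from 12.6 to 34.2 CPM to 1.44 to 14.5 CPM, in all 18 alternatives. In untreated cardioids it fell by 1.63 ± 0.53 (edgeR adjusted p = 0.0279), a call lost without any of 5 of the 6 libraries (edgeR adjusted p = 0.0566 to 0.109). It overlaps FEZ2 on the other strand, and the strand setting of the counting is not given in the sources used here. AXL (chr19:41219203-41261766, plus strand), a receptor tyrosine kinase for GAS6, rose from 6.71 to 13.6 CPM at day 1.5 to 25.3 to 48.5 CPM at day 2.5 in WT, by 1.82 ± 0.26 (edgeR adjusted p = 7.89e-07), and stayed at 32.7 to 84.4 CPM at day 4.5. With the early enzyme at day 2.5 AXL was at 28.8, 42.3 and 18.1 CPM against 60.8, 53.7 and 69.5 CPM untreated, with no overlap and a difference of -1.09 ± 0.35 that did not pass (edgeR adjusted p = 0.165). Without the treated library of line WT it did (-1.45, edgeR adjusted p = 0.0474). CRIM1 and AXL passed in none of the KO comparisons, with differences of -0.33 ± 0.34 and -0.37 ± 0.24 at day 2.5 and 0.58 ± 0.54 and -0.03 ± 0.33 at day 7.5. At day 7.5 the early enzyme differences were -1.05 ± 0.54 and -0.54 ± 0.33 (edgeR adjusted p = 0.335 and 0.440). F3 (chr1:94529225-94541800, minus strand), tissue factor, had at most 19 counts and more than 3 counts in 14 libraries of 65, and it was tested nowhere.

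The members were next counted against the share of all genes that passed in each comparison. Of the 10, 8 passed the filter on low counts in both arms and CCN1 in the genotype arm too, so 9 and 8 were tested. In WT, 4 of 9 changed from day 1.5 to 2.5 (30.1% of all genes) and 5 of 9 from day 2.5 to 4.5 (34.5%). From day 4.5 to 7.5, 0 members and 14% of all genes had an unadjusted p under 0.05. After adjustment 0 of 9 changed over that step (2.70%, 0 by DESeq2). Without the R1 libraries the last count was 2, CCN1 and CCN2. In untreated cardioids 3 of 8 changed from day 2.5 to 4.5 (23.0%). From day 4.5 to 7.5 0 of 8 did (6.39%, also 0 unadjusted against 24.5% of all genes, 0 by DESeq2). The 5 of 9 include ANKRD1, whose day 4.5 level chose it, so nothing is read from that count.

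Between genotypes, edgeR called 0 of 9 at day 1.5 (0% of all genes, 0 by DESeq2). At an unadjusted p under 0.05 were 0 members and 4.28% of all genes. At day 2.5 edgeR called 0 of 9 (0.993% of all genes), with 0 by DESeq2 and 8 of 9 fitted changes below zero. Here 6 members and 10.5% of all genes had an unadjusted p under 0.05. At day 4.5, which chose ANKRD1, 3 of 9 passed, ANKRD1 and CCN2 lower and AMOTL1 higher in KO (3.74%), and nothing is read from that count. At day 7.5, 4 of 9 members and 5.53% of all genes had an unadjusted p under 0.05. After adjustment edgeR called 0 of 9 (0.348%), with 1 by DESeq2 (ANKRD1) and 7 of 9 below zero. Without the R1 libraries the counts at days 2.5 and 7.5 were 2 and 2. A change of the KO effect over the 4 days was called for 1 of 9 (0.674%). That gene was ANKRD1, and since this test holds the day 4.5 difference that chose it, the count is a description. CCN2 had an edgeR adjusted p of 0.0530.

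With the early enzyme at day 2.5, 4 of 8 members and 9.22% of all genes had an unadjusted p under 0.05. After adjustment 0 of 8 passed (1.15% of all genes, 0 members by DESeq2). At day 4.5 3 of 8 did, ANKRD1, CCN2 and AMOTL2, all lower (3.48%), which again is a description, and each of these calls was lost without the treated library of line TNNT2. At day 7.5 2 of 8 did, ANKRD1 and AMOTL2 (3.33%). With the late enzyme AMOTL2 alone passed at day 4.5, 1 of 8 (0.220%), a call lost in 5 of 6 omissions of a single library. At day 7.5 0 of 8 passed by edgeR (0.659%, 2 at an unadjusted p under 0.05 against 13.5% of all genes, 0 by DESeq2). Early and late starts differed in 0 of 8 at day 4.5 (0.361%, 0 unadjusted against 9.65% of all genes, 0 by DESeq2). At day 7.5 they also differed in 0 of 8 (0.00784%, 3 unadjusted against 5.64%, 0 by DESeq2). The effects of KO and of the early enzyme differed in 0 of 9 at day 2.5 (0.0925%, 0 unadjusted against 4.95%, 0 by DESeq2). At day 7.5 these effects differed in 0 of 9 too (0.0925%, 3 unadjusted against 7.37%, 0 by DESeq2). The median change of all genes lay between -0.0483 and 0.0275 in every comparison.

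**Figure D4:**
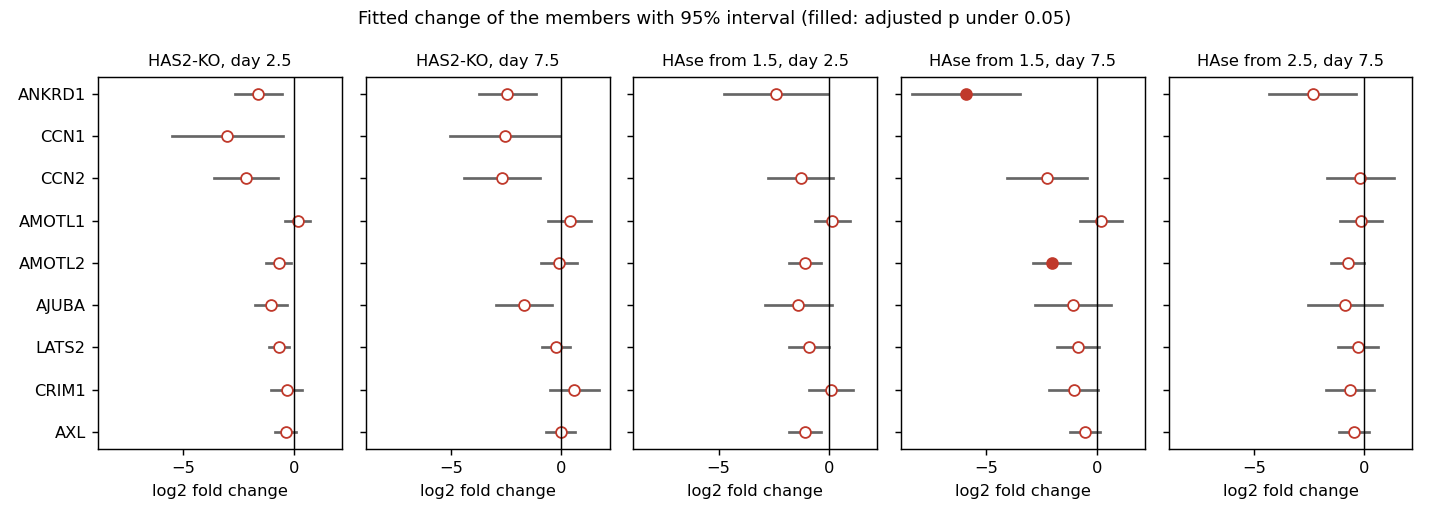
Fitted log2 fold change (x axis) with 95% interval of each tested member (rows) in 5 comparisons that did not choose ANKRD1, with filled points for edgeR adjusted p under 0.05. Filled points appear for ANKRD1 and AMOTL2 with the early enzyme at day 7.5, and intervals of CCN2, CCN1 and AJUBA are wide.

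The rest of the pathway was followed through lists of genes chosen by name, also with earlier results of these data known. Of 20 Hippo kinases, scaffolds and upstream regulators, 0 passed in any of the 4 KO comparisons, where 0% to 3.74% of all genes did. In the 5 comparisons of enzyme with untreated 0 passed too (0.220% to 3.48% of all genes). At such shares 0 of 20 is near the share of all genes. The list medians were from 0.01 to 0.09 in the KO comparisons. During development 6 of the 20 changed from day 2.5 to 4.5 in WT, where 34.5% of all genes did, led by the angiomotin AMOT (2.49 ± 0.35), PTPN14 (-1.39 ± 0.27) and FRMD6 (-1.09 ± 0.34). Of 10 genes for YAP, TAZ, TEAD factors and their VGLL partners, 8 were tested in the genotype arm and 7 in the enzyme arm. TEAD4 was the 1 that passed in KO, at day 4.5 (-1.75 ± 0.33, mean 3.41 CPM against 11.04 in WT), and none passed in any comparison of enzyme with untreated. YAP1 was at a mean of 73.2 CPM in WT and 99.2 in KO at day 4.5 and was not called.

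Of 20 other genes found in published YAP and TAZ target signatures, 19 were tested in the genotype arm and 17 in the enzyme arm, and calls went in both directions. TGFB2, a growth factor of the TGF-beta family, fell in KO at day 2.5 (-2.58 ± 0.63, edgeR adjusted p = 0.0305), 1 of 19 (0.993% of all genes). At day 4.5 GADD45B was lower (-1.58 ± 0.45) and IGFBP3 higher (1.44 ± 0.35) in KO, and at day 7.5 0 of 19 passed (0.348% of all genes). With the early enzyme at day 2.5 MYOF fell (-1.79 ± 0.44, edgeR adjusted p = 0.0419), as did THBS1, the matrix protein thrombospondin, from a mean of 5.45 CPM to 0 in all 3 libraries (edgeR adjusted p = 0.0373). At day 4.5 2 of 17 passed (3.48% of all genes), CCDC80 (-2.22 ± 0.40) and GADD45B (from a mean of 11.7 CPM to 0.482), both lower. On this day as on day 2.5, 12 of 17 fitted changes were below zero, with a median of -0.25 at day 4.5. At day 7.5 THBS1 rose instead (2.03 ± 0.50, edgeR adjusted p = 0.0251). The list's median was -0.78 at day 2.5 and 0.12 at day 7.5, against 0 and 0.0173 for all genes.

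ANKRD1 belongs to the muscle ankyrin repeat proteins, and that family and its titin-linked partners formed another list of 8, of which ANKRD2 and ANKRD23 did not pass the filter. All 6 tested rose from day 2.5 to 4.5 in WT, where 34.5% of all genes were called. Among them were the Z-disc protein CSRP3, from 0 to a mean of 65.8 CPM, MYPN (5.72 ± 1.02) and the ubiquitin ligase TRIM63 (5.08 ± 0.42). In KO at day 4.5 TRIM63 (-2.19 ± 0.33) and CSRP3 (-1.55 ± 0.38) were lower. At day 7.5 0 of 6 passed (0.348% of all genes), with a list median of -0.08. Under the early enzyme at day 4.5 CSRP3 (-4.29 ± 0.76), PALLD (-1.37 ± 0.24) and TTN (-1.29 ± 0.32) were lower, 3 of 6 (3.48% of all genes). There 6 of 6 were below zero, with a median of -1.86. PALLD was also lower with the early than with the late start at that day (-1.25 ± 0.24), 1 of 6 (0.361% of all genes). At day 7.5 TCAP fell with the early enzyme by 2.33 ± 0.62 (edgeR adjusted p = 0.0405) and PALLD by 1.25 ± 0.23 (edgeR adjusted p = 0.00285). These were 2 of 6 (3.33% of all genes), with a list median of -1.56. CSRP3 was at 73.1 CPM in KO and 74.7 CPM in WT at day 7.5, the day on which the ANKRD1 means were 114 and 613 CPM.

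Immediate early genes, which like ANKRD1 answer quickly to mechanical and growth stimuli, were the last list, with 9 of 12 tested in the genotype arm and 6 in the enzyme arm. In WT 7 of 9 fell from day 1.5 to 2.5 (30.1% of all genes called), led by IER3 (-5.75 ± 0.35), FOS (-3.62 ± 0.49) and FOSB (-3.33 ± 0.69). From day 4.5 to 7.5 5 of 9 rose (2.70% called), led by FOSB (2.90 ± 0.73), EGR1 (2.70 ± 0.43) and FOS (2.35 ± 0.50). In KO at day 7.5 JUNB fell by 2.72 ± 0.61 (edgeR adjusted p = 0.0240) and EGR1 by 2.28 ± 0.54 (edgeR adjusted p = 0.0433). With the enzyme at day 7.5 IER3 fell, by 1.95 ± 0.33 with the early start (edgeR adjusted p = 0.00129) and by 1.40 ± 0.32 with the late (edgeR adjusted p = 0.0419). JUNB was the gene of this list whose KO and early enzyme effects differed at day 7.5 (-4.30 ± 0.96, edgeR adjusted p = 0.0400).

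Across the 16 group means of log2 CPM, the genes whose pattern was most like that of ANKRD1 among 14046 others were KIF1C (Pearson r = 0.912), TRNP1 (0.906), NPTXR (0.894), SHROOM3 (0.892), COMTD1 (0.845), ANXA3 (0.845), SYNM (0.839), ZDHHC14 (0.837), HMOX2 (0.836) and IQSEC1 (0.835). The least like it were APCDD1L (-0.895), PRRT2 (-0.890) and MAGI3 (-0.888). KIF1C, a kinesin motor, moved over a far narrower range, with means of 249.7 CPM in WT and 191 in KO at day 4.5, 315 in untreated at day 7.5 and 197 with the early enzyme then. Among the members CCN2 ranked 32nd (0.770), CCN1 124th (0.659) and AMOTL2 529th (0.489), LATS2 and AJUBA had r of 0.266 and 0.133, and AXL, AMOTL1 and CRIM1 had -0.084, -0.448 and -0.464. Without the day 1.5 groups (14 left) CCN2 was at 0.739, AMOTL1 at -0.647, AXL turned from -0.084 to 0.531, the atrial myosin light chain MYL7 went from 0.584 to 0.896, and the sarcomere gene CSRP3 was at 0.722 in place of 0.467. These coefficients describe group means that share libraries, depth and the course of development, and carry no test.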

How the data were processed

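Gene expression was measured by 3′ tag RNA sequencing in 65 libraries of 16 groups, each of 8 pooled cardioids. The authors deposited raw counts per gene, made with featureCounts of Subread 1.6.2 on hg38 (GRCh38), per the submitters' processing notes. The aligner, annotation, strand setting and treatment of multi-mapping reads are not given in the sources used here. A total of 4 columns matched no listed sample and were not used. All 58735 gene identifiers were found in GENCODE 29.

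Members and gene lists were chosen with earlier results of these data known. Each arm (41 and 24 libraries) was fitted with edgeR 4.0.16 in R 4.3.3: filterByExpr with a minimum count of 10, TMM scaling, 1 mean per group, robust quasi-likelihood F-tests and Benjamini-Hochberg adjustment over all genes at 0.05. A joint fit of all 65 libraries gave the difference between arms. The script was tested on simulated data. Alternatives were DESeq2 1.42.0, RLE scaling, no filter, only the groups compared, a replicate block, each library left out and, chosen after seeing the data, the R1 libraries of lines WT, WT_TU and cl4 left out. Count ratios carry exact 95% intervals for counting error only, and reads without molecular identifiers are not independent molecules. No pair of libraries was identical.

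In the enzyme arm the replicate number marks the same cell line in every group, so it pairs libraries. Deviations of same-numbered libraries correlated above 0.1 in 15 of 21 pairs of libraries from different groups of a day (median 0.181, range -0.0779 to 0.421). Genes to name were all 10 members, the genes closest to ANKRD1 (10) and farthest from it (3) by Pearson correlation over group means of log2 CPM (prior count 2), and per list and comparison up to 3 called genes with the largest change. For length, not every gene the rule allows is given in every comparison. Levels of YAP1, KIF1C, CSRP3 and MYL7 and the endoderm genes were added after their values were seen.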

Additional observations from a re-analysis of the deposited data

Results flagged for a closer look

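The members were examined in 60 sets of 5 or 6 libraries, all of the genotype arm at days 1.5, 2.5 and 4.5. Groups of 3 libraries were too small for the rule used. Of the 60 sets, 5 held 1 library far from the others. For normally distributed values the rule marks about 1 in 20 sets by chance. CPM near 0 are not such values, so the count is not read against that share. AMOTL2 in KO at day 2.5 was at 85.4 CPM (71 counts) in the R1 library of cl4 and at 17.2 to 32.8 CPM in the other 5 libraries. The R1 library of cl4 at day 4.5 was the high one for both matricellular genes, with CCN1 at 12.7 CPM (25 counts) against 0 to 3.67 CPM and CCN2 at 9.14 CPM (18 counts) against 0 to 2.44 CPM. CCN1 in KO at day 2.5 was at 2.55 CPM (4 counts) in the R1 library of cl46 and at 0 to 0.574 CPM elsewhere. F3 in KO at day 4.5 was at 0.579 CPM in the R1 library of cl51, which is 1 count, and at 0 in the other 5.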

How the results depend on the processing

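Of 738 alternatives for 54 results on single members, 666 kept direction and side of the threshold, 51 lost and 19 gained the call and 2 turned sign. The latter were ANKRD1 between early and late enzyme at day 4.5 without the late library of line TNNI1 (0.68, main -1.34, and -3.19 at the other end without the early library of that line) and CCN1 in WT from day 2.5 to 4.5 without the R1 libraries (-1.02, main 1.73). Of 300 alternatives for counts of members called, 262 stayed within 1.5 times and 38 did not.

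Without a filter the count was 2 for WT from day 1.5 to 2.5 (main 4), 2 for the early enzyme at day 2.5 (main 0), 2 for the late enzyme at day 4.5 (main 1) and 1 for the difference between arms at day 7.5 (main 0). With only the groups compared it was 1 for KO at day 4.5 (main 3), 3 for KO at day 7.5 (main 0) and 1 for the early enzyme at day 4.5 (main 3), and this was not run for the KO effect over days. DESeq2 gave 1 for KO at day 7.5, 2 for the late enzyme at day 4.5 and 2 for the KO effect over days (main 1). Without the R1 libraries it was 2 for WT from day 4.5 to 7.5 (main 0), 2 for KO at day 2.5 (main 0), 2 for KO at day 7.5 and 3 for the KO effect over days.

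Leaving out 1 library at a time gave 2 to 4 for WT from day 1.5 to 2.5, 4 to 6 for WT from day 2.5 to 4.5 (main 5), 1 to 3 for untreated from day 2.5 to 4.5 (main 3), 0 to 2 for KO at day 2.5, 2 to 4 for KO at day 4.5, 0 to 1 for the early enzyme at day 2.5, 0 to 3 at day 4.5 and 1 to 2 at day 7.5 (main 2), 0 to 1 for the late enzyme at day 4.5 and 1 to 2 for the KO effect over days. It gave 0 to 0 in the other comparisons. The cause of these changes was not tested.

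In the genotype arm the replicate block has 3 sets of libraries (R1 of lines WT, WT_TU and cl4, R2 of these lines, and all others), which the labels do not tie to a shared culture or day. Within a set, deviations correlated above 0.1 in 26 of 37 pairs of a KO and a WT library of the same sampling day (median 0.161, range -0.0665 to 0.796). With this replicate block the count was 1 for KO at day 7.5 (ANKRD1, -2.83, edgeR adjusted p = 0.00266) and 3 for the KO effect over days, and CCN2 passed in WT from day 1.5 to 2.5 (-1.06, edgeR adjusted p = 0.0395). In the enzyme arm the paired fit changed the side of the threshold for 1 result, ANKRD1 in untreated cardioids from day 2.5 to 4.5 (2.44, main 2.30). The day 4.5 libraries of that step served in choosing ANKRD1, so it is a description. With TMM-scaled CPM 141 of 144 group levels moved by less than 1 SD, the exceptions being AJUBA, AMOTL2 and CRIM1 with the early enzyme at day 4.5. At these depths, levels of CCN1, CCN2 and F3 rest on few counts.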
